A study of Mus musculus with 10 samples.

Results

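Bone morphogenetic protein (BMP) and Hedgehog signalling were described through 8 genes in sorted mouse epithelial cells from the ileum, where the small intestine ends. They are the ligand gene Bmp2, the type I receptor gene Bmpr1a, the inhibitory Smad genes Smad6 and Smad7, the target genes Id1, Id2 and Id3, and the Hedgehog ligand gene Ihh. They were chosen by symbol from a table of 13932 genes, with the comparison of genotypes and the relation to the proliferation gene Mki67 in these libraries already known. Both are therefore given as descriptions of these genes. All 8 are listed in the table, and all 8 are among the 12477 genes that passed the filter on low counts.

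RNA was sequenced in bulk from live cells that were negative for CD45, a leukocyte marker, and positive for EpCAM, an epithelial marker. The dIEC group holds 5 mice (3 males, 2 females) with the genotype H2-Ab1 fl/fl; Villin:Cre+, in which Cre recombinase under the villin promoter, active in intestinal epithelium, is to delete an MHC class II beta chain gene. The WT group holds 5 mice (3 males, 2 females) with the genotype H2-Ab1 fl/fl; Villin:Cre-, so both groups carry the floxed gene. The sample labels give Cre to dIEC mice alone, whereas the series text gives it to neither genotype. Each library came from 1 mouse, ages and strain are not given in the labels, and the deletion and the presence of Cre cannot be told apart. Libraries are named by genotype and number: dIEC 1, 3 and 5 and WT 2, 4 and 6 are males, and dIEC 7 and 9 and WT 8 and 10 are females.

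Totals ran from 9174101 to 13484363 counts a library. Levels are counts scaled to a common library size (CPM) with TMM factors. H2-Ab1 lay between 0.767 and 3.11 CPM in dIEC libraries and between 62.9 and 368 CPM in WT libraries. The summed level of 8 epithelial markers was 11311 to 17972 CPM in dIEC and 11044 to 14582 CPM in WT. Of 14 mesenchymal markers 2 are listed (Pdgfrb and Col3a1, summed 5.62 to 10.1 CPM in dIEC and 4.16 to 7.50 CPM in WT), of 10 endothelial markers 2 (Pecam1 and Vwf, 0.920 to 2.82 CPM and 0.313 to 2.41 CPM, in the same order), and of 12 leukocyte markers 3 (Itgam, Ptprc and Csf1r, 12.0 to 19.1 CPM and 8.66 to 18.0 CPM). Libraries differed in proliferation genes within each genotype. The 20 proliferation genes summed to between 237 and 1503 CPM in dIEC and between 319 and 1103 CPM in WT, with dIEC 7 lowest and dIEC 9 highest. Several results are also given without these libraries.

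BMP ligands bind paired type I and type II receptors, which phosphorylate receptor Smads that move to the nucleus with Smad4 and switch on targets such as the Id genes and the inhibitory Smads. Id proteins bind the E proteins and keep them off DNA, and Smad6 and Smad7 act back on the receptors. In the small intestine BMP signalling is strong along the villus and held low in the crypt by secreted antagonists from the mesenchyme, and Indian hedgehog is made by the epithelium and received by the mesenchyme beneath it.

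The promoters of 5 of these genes were searched for short sequences that Smad proteins are known to bind. The 3 stretches shown were picked because their genes are a Smad inhibitor, an Id target and the gene that followed Mki67 most closely over all 10 libraries. They come from RefSeq on GRCm38.p6, read 5′ to 3′ on the strand of the gene, with the searched motif in capitals. The Smad6 stretch is chr9:64022056-64022179 on the minus strand, from 120 bases before the start of transcription to base 4 after it. The Id2 stretch is chr12:25096254-25096342 on the minus strand, from 250 to 162 bases before the RefSeq start, where GENCODE also places an intron of a longer Id2 transcript. The Ihh stretch is chr1:74951673-74951792 on the minus strand, the 120 bases before the start.
Smad6: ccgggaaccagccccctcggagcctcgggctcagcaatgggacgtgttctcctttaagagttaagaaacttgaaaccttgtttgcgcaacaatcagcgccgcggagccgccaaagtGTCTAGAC
Id2: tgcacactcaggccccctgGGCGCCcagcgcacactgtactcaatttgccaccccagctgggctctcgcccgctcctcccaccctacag
Ihh: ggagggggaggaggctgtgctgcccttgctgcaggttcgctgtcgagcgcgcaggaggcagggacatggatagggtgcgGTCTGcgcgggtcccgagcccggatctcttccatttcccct

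In these stretches Smad6 carries GTCTAGAC, the palindrome that Smad proteins bind, from base -4 to base 4 around the start. Id2 carries the GC-rich element GGCGCC from -231 to -226, and Ihh carries CAGAC on the opposite strand (GTCTG as printed) from -41 to -37. The 3 motifs were searched on both strands of windows from 250 bases before to 50 after the start, and none of the printed matches overlaps another. GTCTAGAC was found in 70 of 32851 windows (0.213%), GGCGCC in 11.9% and CAGAC in 49.6%, so the last is in about every other promoter. Windows were used for 5 of the 8 genes (Bmpr1a, Smad6, Id2, Id3 and Ihh; not Bmp2, Smad7 or Id1). In the others, Bmpr1a carries GGCGCC from -198 to -193 and Id3 carries CAGAC from -167 to -163 and, on the opposite strand, from -68 to -64. Outside its printed stretch, the Ihh window also carries CAGAC from 25 to 29. A match describes the letters of the window and not binding.

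The levels are given in order of role, and the plot of levels by genotype shows every library. Bmp2 (ENSMUSG00000027358; mm10 chromosome 2, 133552159 to 133562885), the ligand, was measured at 68.7, 48.7, 32.7, 49.997 and 49.2 CPM in dIEC 1, 3, 5, 7 and 9, against 33.2, 33.3, 28.5, 32.8 and 22.4 CPM in WT 2, 4, 6, 8 and 10. In all, 4 dIEC libraries stood above every WT library, and the fifth, dIEC 5, lay below 3 of the WT libraries, so the groups overlapped. Bmpr1a (ENSMUSG00000021796; chromosome 14, 34410734 to 34503341), the receptor, had 133, 115, 126, 113 and 126 CPM in dIEC 1, 3, 5, 7 and 9, against 114, 117, 107, 154 and 137 CPM in WT 2, 4, 6, 8 and 10. It was the steadiest of the 8, its highest library 1.44 times its lowest, and the dIEC values lay inside the WT range.

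Smad6 (ENSMUSG00000036867; chromosome 9, 63953076 to 64022059), which acts mainly against BMP receptors, had 21.6, 20.9, 33.5, 47.7 and 18.6 CPM in dIEC 1, 3, 5, 7 and 9, against 22.3, 31.6, 29.4, 21.3 and 25.6 CPM in WT 2, 4, 6, 8 and 10. The dIEC libraries held both the lowest and the highest value. Smad7 (ENSMUSG00000025880; chromosome 18, 75367529 to 75395935), which acts against both BMP and TGF-beta receptors, had 101, 117, 135, 170 and 50.2 CPM in dIEC 1, 3, 5, 7 and 9, against 58.1, 144, 88.02, 50.9 and 112 CPM in WT 2, 4, 6, 8 and 10. Its highest library was 3.37 times its lowest, the widest range of the 8, and those 2 libraries were dIEC 7 and dIEC 9.

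Id1 (ENSMUSG00000042745; chromosome 2, 152736251 to 152737410) had 95.6, 107, 135, 146 and 76.1 CPM in dIEC 1, 3, 5, 7 and 9, against 77.1, 136, 108, 82.6 and 95.6 CPM in WT 2, 4, 6, 8 and 10. Id3 (ENSMUSG00000007872; chromosome 4, 136143497 to 136145755) had 115, 130, 141, 149 and 94.0 CPM in the same dIEC order, against 96.0, 146, 123, 96.1 and 120 CPM in the same WT order. Both genes were highest in dIEC 7 and lowest in dIEC 9, with WT 4 close to the top and WT 2 and WT 8 close to the bottom. Across the libraries the ratio of Id1 to Id3 CPM held between 0.799 and 0.979 (0.867 ± 0.0665, SD, n = 10). Id2 (ENSMUSG00000020644; chromosome 12, 25093799 to 25097140) had 50.4, 39.7, 50.1, 39.7 and 39.6 CPM in dIEC 1, 3, 5, 7 and 9, against 42.0, 58.8, 40.9, 33.2 and 52.1 CPM in WT 2, 4, 6, 8 and 10. Its extremes were both WT libraries, and dIEC 7 and dIEC 9 had nearly the same level.

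Ihh (ENSMUSG00000006538; chromosome 1, 74945315 to 74951672) had 104, 96.5, 95.2, 178 and 78.0 CPM in dIEC 1, 3, 5, 7 and 9, against 82.8, 107, 87.3, 95.8 and 120 CPM in WT 2, 4, 6, 8 and 10. The library dIEC 7 stood apart from the other 9, which lay between 78.0 and 120 CPM. Per kilobase of exon, which allows levels of different genes to be compared, Id1 was highest at 91.4 ± 22.0 CPM per kb (SD, n = 10), then Id3 at 67.7 ± 11.7 and Ihh at 34.3 ± 9.33. Next came Smad7 at 22.7 ± 9.07, Bmpr1a at 19.6 ± 2.22 and Id2 at 18.3 ± 3.20, whose spreads overlapped, then Bmp2 at 11.2 ± 3.89 and Smad6 at 8.50 ± 2.73, whose spreads overlapped as well. The spreads of Id1 and Id3 also overlapped, as did that of Smad7 with those of Ihh and Bmp2, and, barely, Id2 with Bmp2. The order is therefore approximate.

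**Figure D1:**
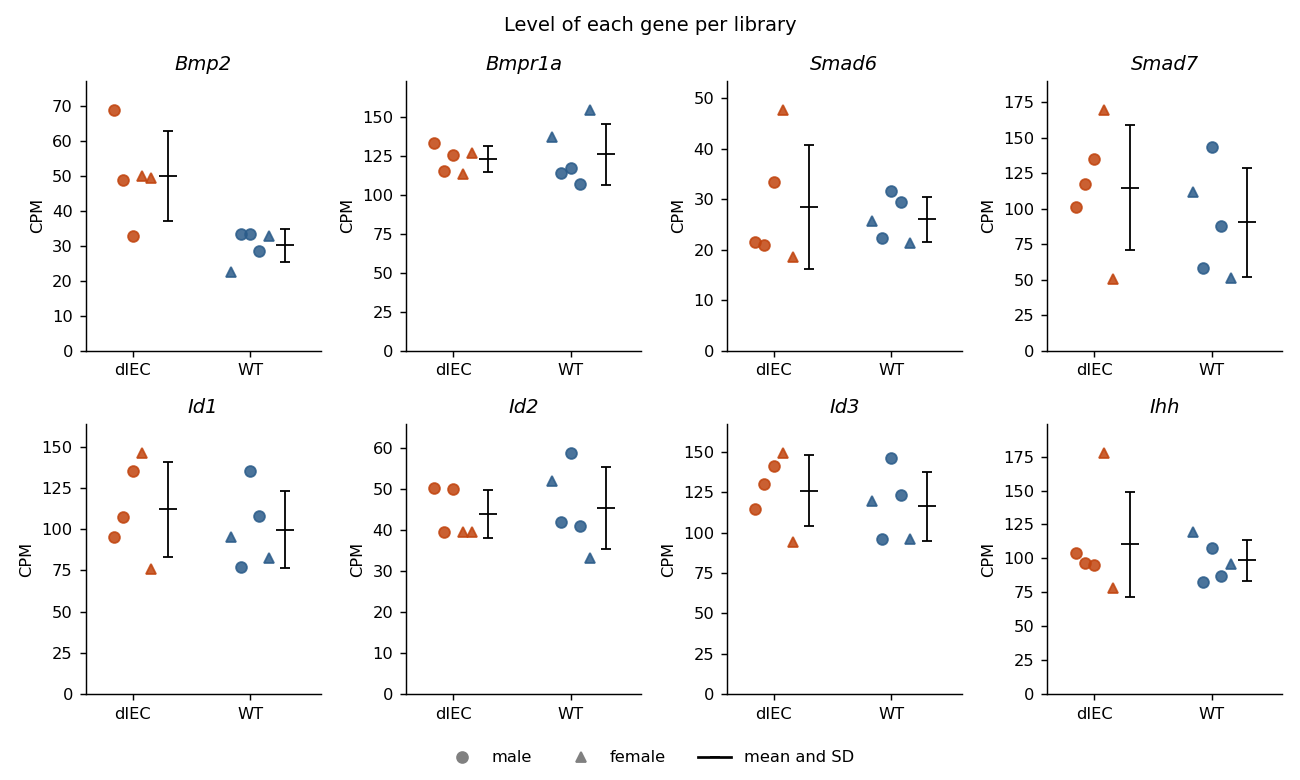
Level in CPM of each of the 8 genes, 1 point a library, with dIEC (orange) left of WT (blue), circles for males, triangles for females, and bars for the mean and SD (n = 5 each). The Bmp2 groups are the most separated, with 4 dIEC libraries above every WT library, and for Smad6, Smad7, Id1, Id3 and Ihh the highest dIEC point is dIEC 7 and the lowest dIEC 9.

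The first comparison asked how dIEC epithelium differed from WT epithelium. The Bmp2 level averaged 49.9 ± 12.8 CPM in dIEC and 30.0 ± 4.72 CPM in WT (SD, n = 5 each). Its log2 fold change was 0.73 (SE 0.19), the largest of the 8, and it did not pass the test over all genes (edgeR quasi-likelihood test, Benjamini-Hochberg adjusted p = 0.9999; unadjusted p = 0.00335). The genes were chosen with this comparison known, so unadjusted p-values of the 8 are descriptions and no evidence of a difference. Having at least 4 dIEC libraries above every WT library was a pattern of 196 of the 12477 genes (1.57%). Within males the log2 fold change of Bmp2 was 0.66 (SE 0.25, 3 against 3), and within females 0.85 (SE 0.35, 2 against 2). It ran from 0.58 to 0.87 over 20 alternative settings, with adjusted p-values from 0.110 to 1. In bulk RNA, fewer cells of a type and less RNA per cell cannot be told apart, here and in all later comparisons.

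None of the 8 genes passed in edgeR, in DESeq2 or in limma voom, and Bmp2 alone had an unadjusted p under 0.05 in edgeR. Over all genes 2 of 12477 passed in edgeR (0.016%), 4 in DESeq2 (0.0321%) and 2 in limma voom (0.016%), and 355 (2.85%) had an unadjusted p under 0.05. No member had groups that did not overlap, as 39 genes did (0.313%). Log2 fold changes were 0.34 (SE 0.35) for Smad7, 0.17 (SE 0.21) for Id1, 0.15 (SE 0.20) for Ihh, 0.12 (SE 0.27) for Smad6 and 0.12 (SE 0.17) for Id3. The difference was -0.025 (SE 0.12) for Bmpr1a and -0.050 (SE 0.16) for Id2, and all 7 of these are smaller than their standard errors. The median over the 8 was 0.14 with 6 above 0, against a median of 0.013 over all genes with 52.6% above 0.

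A single library carried several of these values. Without dIEC 7 the log2 fold change was -0.19 for Smad6, -0.016 for Id1, -0.0042 for Id3, -0.074 for Ihh and 0.0039 for Smad7. Bmp2 without that library stayed inside the range of alternatives given above. With the Mki67 level added to the model, Smad7 had a log2 fold change of 0.43 (SE 0.096, edgeR adjusted p = 0.0739), Bmp2 0.72 (SE 0.18, adjusted p = 0.110) and Id1 0.20 (SE 0.099, adjusted p = 0.324). None of the 8 passed there either, while 28 genes did (0.224%). The product of genotype and sex was not called for any of the 8 in edgeR, 0 of them at an unadjusted p under 0.05, while 2.1% of all genes had one, and 1 gene of 12477 was called (0.00801%). DESeq2 and limma voom called 0 of the 8 as well, with 18 and 2 genes called in all (0.144% and 0.016%).

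**Figure D2:**
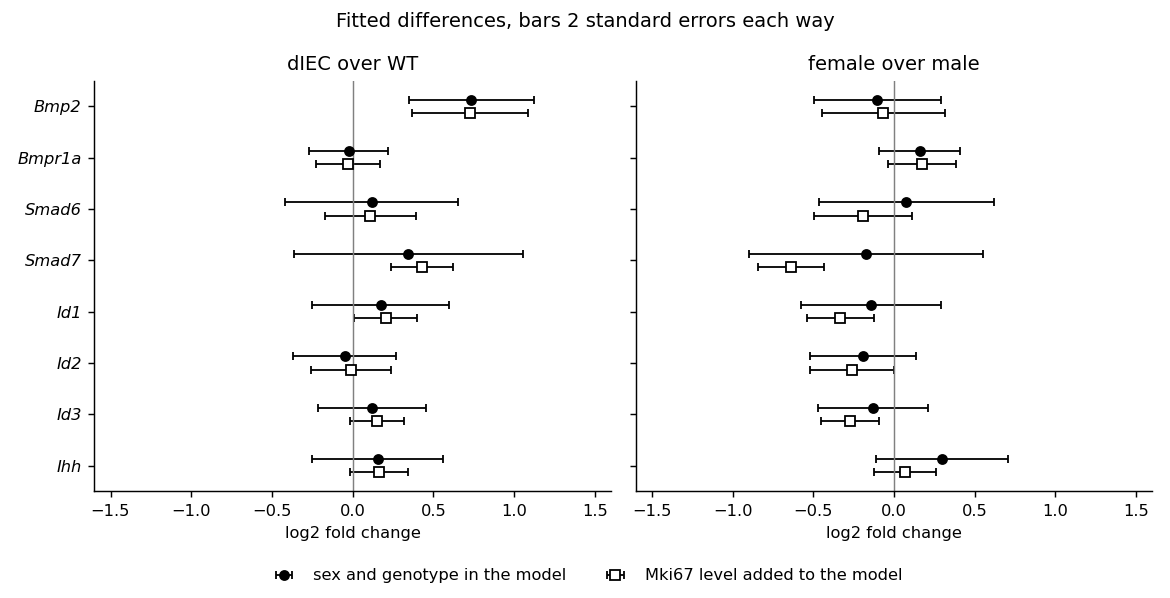
Fitted log2 fold change of each gene for dIEC over WT (left) and female over male (right), with bars of 2 standard errors each way. Filled circles are the model of sex and genotype, and open squares that model with the Mki67 level added. Bmp2 lies farthest from 0 on the left at 0.73, and the open square of Smad7 lies farthest from 0 on the right at -0.64.

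The second comparison set the 4 females against the 6 males with genotype in the model. None of the 8 genes was called in edgeR, and 0 of them had an unadjusted p under 0.05, while 5 of 12477 genes were called (0.0401%) and 4.44% had an unadjusted p under 0.05. DESeq2 called 13 genes (0.104%) and limma voom 5 (0.0401%), with 0 of the 8 in either. Smad7 averaged 95.7 ± 57.1 CPM in females (SD, n = 4) and 107 ± 31.7 CPM in males (SD, n = 6), a log2 fold change of -0.17 (SE 0.36). The largest difference was that of Ihh, at 0.30 (SE 0.20, adjusted p = 0.9996).

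With the Mki67 level in the model, Smad7 was lower in females. Its log2 fold change was then -0.64 (SE 0.10, edgeR adjusted p = 0.00644), and it was the only one of the 8 called, in a fit that called 550 genes (4.41%). Of these genes, 386 were lower in females and 164 higher. The libraries nearest in Mki67 level can be set side by side. Female WT 8 had 50.9 CPM of Smad7 at 155 CPM of Mki67, whereas male dIEC 1 had 101 CPM at 165, male WT 6 had 88.02 CPM at 173 and male dIEC 3 had 117 CPM at 191. Female WT 10 had 112 CPM of Smad7 at 60.6 CPM of Mki67, against 144 CPM at 72.4 in male WT 4. The females dIEC 7, at 40.2 CPM of Mki67, and dIEC 9, at 321 CPM, lay beyond all males, and no male library matches them.

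Markers of villus position, and most crypt genes as well, differed in the same direction in that fit. All 8 tested genes of a list of villus tip genes had a negative log2 fold change for female over male (median -0.97, against 0.0072 over all genes), and 1 of them, the transcription factor gene Klf4, was called (-0.86, SE 0.10, edgeR adjusted p = 0.0010). The others included Ada at -1.56 (adjusted p = 0.108) and Apoa4 at -1.14 (adjusted p = 0.113), neither called. Their summed level ran from 2888 to 16089 CPM in females and from 4178 to 15927 CPM in males. Of 13 villus enterocyte genes 9 were lower and 4 higher in females (median -0.25), and Apoa1 (-0.45, adjusted p = 0.0323) and Alpi (-0.42, adjusted p = 0.0485) were called lower by edgeR. Of 10 crypt and stem cell genes 9 were lower and 1 higher in females (median -0.32). Of 20 proliferation genes 17 were lower and 3 higher (median -0.089), with 0 called in either list. The shift was thus not particular to villus genes. These marker genes were named after their values were seen, and their part in the Smad7 difference was not tested.

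The Smad7 call held without each library in turn (log2 fold change -0.72 to -0.59, edgeR adjusted p from 0.00685 to 0.0418). It held with library size in place of TMM (-0.57, adjusted p = 0.0183) and with the proliferation list in place of Mki67 (-0.68, adjusted p = 0.0255). DESeq2 gave -0.66 (adjusted p = 4.49e-06) and limma voom -0.64 (adjusted p = 0.00691). These further settings, and the choice of Smad7 for them, were made after its values were seen. In the same fit Id1 had -0.33 (SE 0.10, edgeR adjusted p = 0.0792), Id3 -0.27 (SE 0.089, adjusted p = 0.0863) and Id2 -0.26 (SE 0.13, adjusted p = 0.241), none of them called.

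The third description set each gene against Mki67, the gene of a nuclear protein of dividing cells. Mki67 had 165, 191, 120, 40.2 and 321 CPM in dIEC 1, 3, 5, 7 and 9, against 257, 72.4, 173, 155 and 60.6 CPM in WT 2, 4, 6, 8 and 10, and the highest and lowest libraries were both dIEC females. On log2 CPM over the 10 libraries Pearson's r was -0.91 for Ihh (Spearman's rho -0.85), -0.81 for Smad6 (-0.75), -0.77 for Smad7 (-0.73), -0.73 for Id1 (-0.67) and -0.73 for Id3 (-0.71). These 5 genes were lower where Mki67 was higher. Id2 had r = -0.38 (rho -0.36), and Bmp2 at 0.22 (0.16) and Bmpr1a at 0.010 (-0.12) did not follow Mki67. No p is given, because this relation was part of the choice of the genes.

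Many genes followed Mki67 in the same way. An r of -0.7 or less was reached by 5 of the 8 and by 2777 of 12476 genes (22.3%), and the quartiles of r over all genes were -0.66 and 0.62 around a median of -0.047. For Ihh, 3.26% of genes had an r as low or lower, against 12.9% for Smad6, 15.9% for Smad7, 19.6% for Id1 and 19.8% for Id3. Across the range of Mki67, the fitted slope was -0.52 log2 units of Smad7 per log2 unit of Mki67, -0.35 for Smad6, -0.32 for Ihh, -0.27 for Id1 and -0.20 for Id3. Over all libraries with TMM scaling, Smad7 thus had the steepest slope and Ihh the tightest relation. Ihh did not keep that place within males or after sex and genotype were removed, as given below.

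Leaving out dIEC 7 and WT 10, the libraries farthest from the median of Mki67, r was -0.84 for Ihh, -0.77 for Smad6, -0.74 for Smad7, -0.84 for Id1, -0.78 for Id3 and -0.65 for Id2. Without dIEC 7 and dIEC 9 it was -0.86 for Ihh, -0.53 for Smad6, -0.59 for Smad7, -0.49 for Id1 and -0.53 for Id3. Within the 6 males it was -0.75 for Ihh, -0.72 for Smad6, -0.83 for Smad7, -0.87 for Id1, -0.84 for Id3 and -0.86 for Id2. After sex and genotype were removed it was -0.98 for Smad7, -0.94 for Id3 and Ihh, -0.91 for Id1 and -0.84 for Smad6. The values also moved with the scaling, and TMM factors ran from 0.812 in dIEC 7 to 1.21 in dIEC 9. With library size alone r was -0.66 for Ihh, -0.66 for Smad7, -0.56 for Smad6, -0.37 for Id1 and -0.10 for Id3, and for Id2 it changed sign to 0.33. Its value for Bmpr1a was then 0.73.

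**Figure D3:**
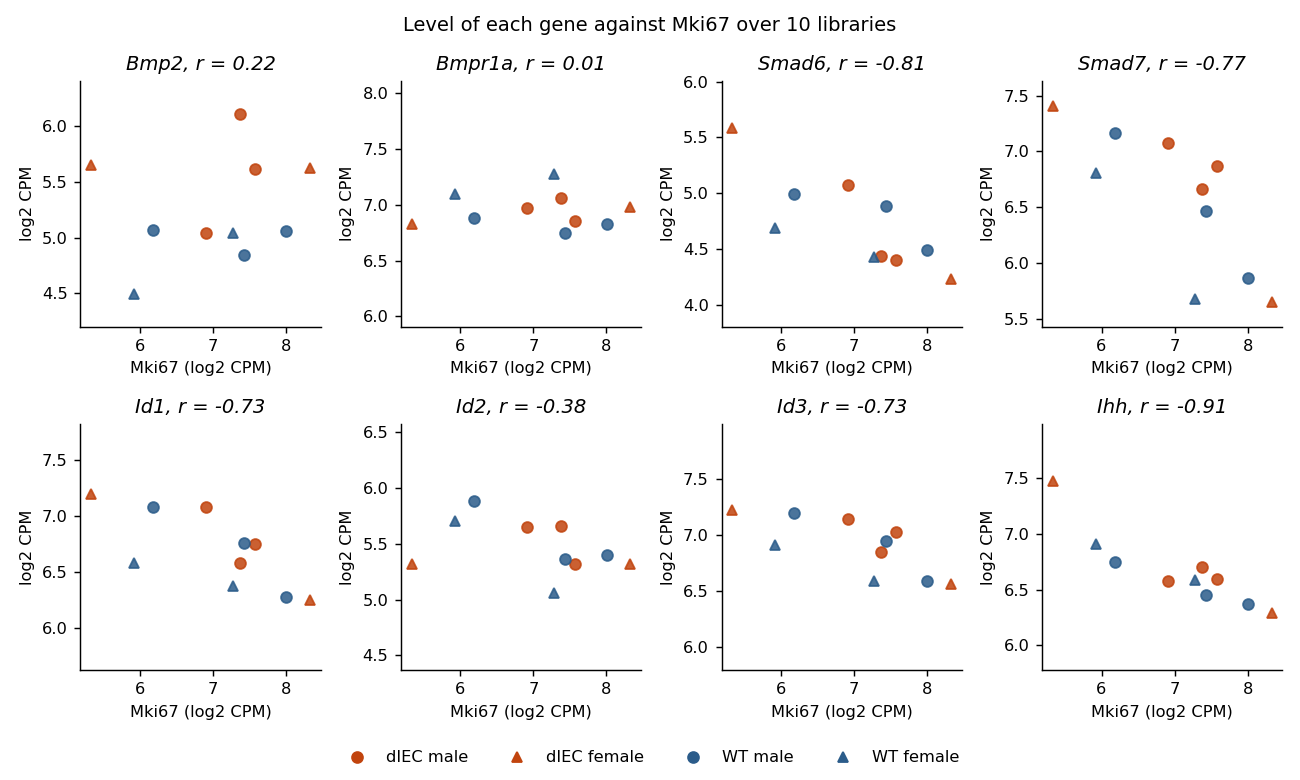
Level of each gene against that of Mki67, both in log2 CPM with TMM scaling, 1 point a library (dIEC orange, WT blue, circles males, triangles females), with Pearson's r over 10 libraries in each title. Ihh, Smad6, Smad7, Id1 and Id3 slope down (r -0.91 to -0.73), and with library size alone these r are -0.66 to -0.10 and that of Id2 turns to 0.33. In the Smad7 panel the female WT 8 lies below the males of similar Mki67 level.

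The same libraries were described by the 9 genes known from the villus tip (Ada, Nt5e, Slc28a2, Egfr, Klf4, Creb3l3, Clec2h, Pkib and Apoa4), which shares no gene with the 8 or with Mki67. Their summed level ran from 2888 to 16089 CPM in dIEC and from 3959 to 15927 CPM in WT. Against the mean log2 CPM of the 8 that were tested, all but Pkib, r over 10 libraries was 0.97 for Smad7 (rho 0.89), 0.96 for Id3 (0.87), 0.91 for Id1 (0.87), 0.76 for Smad6 (0.87), 0.67 for Id2 (0.64) and 0.65 for Ihh (0.64). An r as high as that of Smad7 was reached by 0.192% of genes, against 0.706% for Id3, 4.72% for Id1, 18.1% for Smad6, 23.4% for Id2 and 24.7% for Ihh. The list was written with earlier results of these data known, so these shares are descriptions and not a test. Bmp2 at -0.048 and Bmpr1a at -0.40 were not higher with the list. With library size alone r was 0.96 for Smad7, 0.78 for Id1, 0.73 for Id3, 0.57 for Smad6, 0.29 for Ihh, 0.19 for Id2, -0.26 for Bmp2 and -0.84 for Bmpr1a, and without the 2 libraries farthest from the median of the list it was 0.94 for Smad7, 0.93 for Id3, 0.89 for Id1 and, with a change of sign, 0.14 for Bmpr1a. Without dIEC 7 and dIEC 9 it was 0.97 for Smad7, 0.94 for Id3, 0.87 for Id1, 0.84 for Id2, 0.70 for Smad6, 0.54 for Ihh, -0.038 for Bmp2 and -0.35 for Bmpr1a.

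Ihh and Smad7 thus followed different lists most closely. Against 10 crypt and stem cell genes (summed 353 to 1573 CPM in dIEC and 309 to 1259 CPM in WT), r was -0.92 for Ihh, against -0.70 for Smad6, -0.66 for Smad7, -0.60 for Id1 and Id3 and -0.20 for Id2. Against 13 villus enterocyte genes (32917 to 103296 CPM in dIEC and 41282 to 83228 CPM in WT), r was 0.84 for Smad7, 0.81 for Ihh, 0.80 for Id3, 0.79 for Id1, 0.78 for Smad6 and 0.43 for Id2. Bmp2 had -0.32 and Bmpr1a -0.044 there. The difference between these r values was not tested, and all of them share the same 10 libraries and scaling.

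Among themselves, Id1, Id3 and Smad7 varied together. The r of log2 CPM over 10 libraries was 0.98 for Id1 with Id3, 0.97 for Smad7 with Id3 and 0.92 for Smad7 with Id1, and with library size alone 0.90, 0.77 and 0.80 for these pairs. Without dIEC 7 and dIEC 9 they were 0.97, 0.95 and 0.87. After a linear Mki67 term was removed from both genes they were 0.95, 0.94 and 0.83. Smad6 had 0.87 with Id1 and 0.80 with Id3, and 0.70 and 0.53 after the Mki67 term. Ihh had 0.75 with Smad6, 0.71 with Smad7 and 0.64 with Id1 and with Id3, and after the Mki67 term these were 0.070, 0.041, -0.071 and -0.093. Without dIEC 7 and dIEC 9 these 4 pairs had 0.10, 0.54, 0.27 and 0.38, and with library size alone 0.40, 0.37, 0.077 and -0.12. The pair of Ihh and Bmp2 had 0.12, and 0.79 after the Mki67 term. Bmpr1a lay between -0.43 and -0.37 with Smad6, Smad7, Id1 and Id3. With library size alone it lay between -0.83 and -0.60 with them, and within the 6 males it had -0.11 with Smad6 and, with a change of sign, 0.37 with Smad7, 0.13 with Id1 and 0.12 with Id3.

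**Figure D4:**
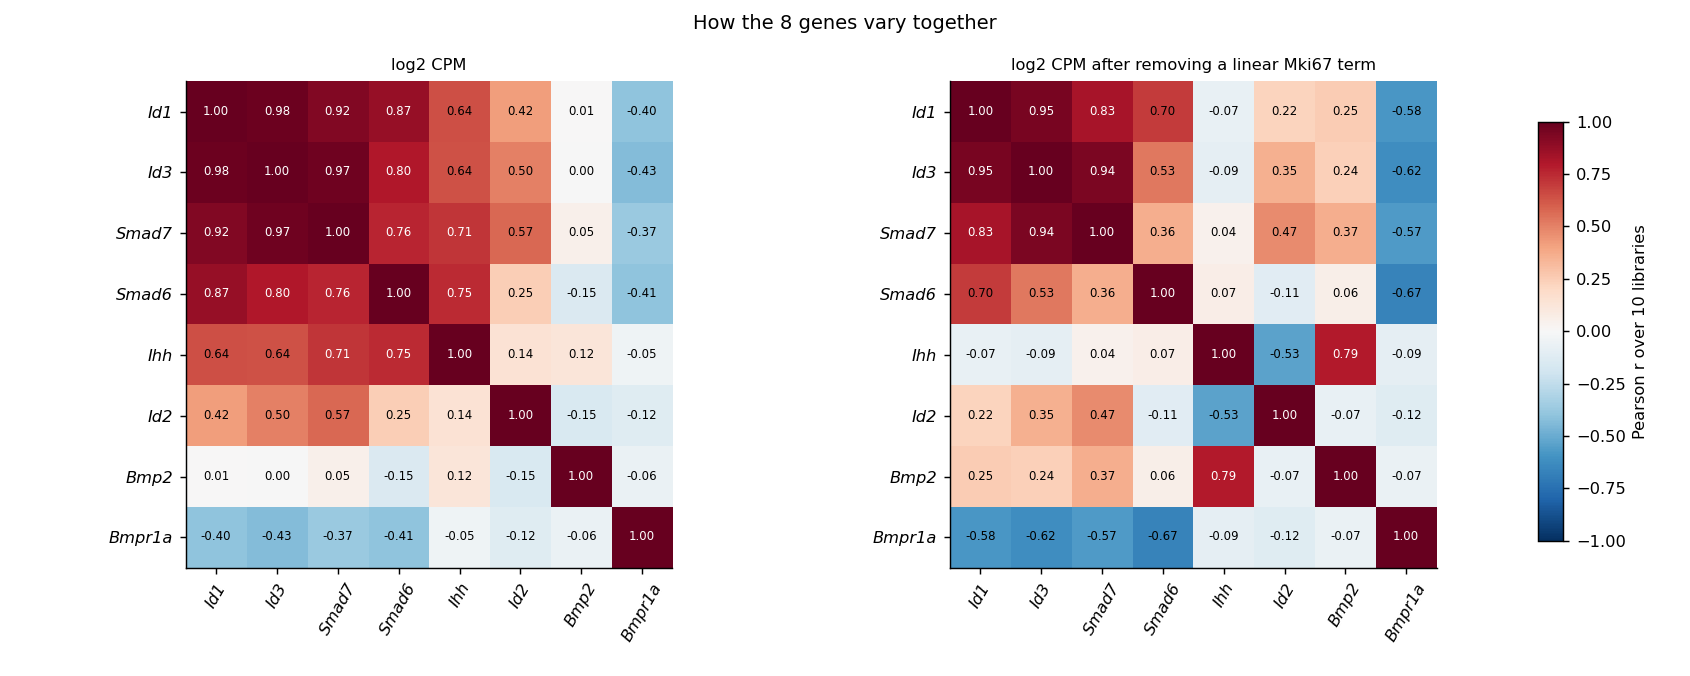
Pearson's r between the 8 genes over 10 libraries, on log2 CPM with TMM scaling (left) and after a linear Mki67 term was removed (right), with colour from -1 (blue) to 1 (red). Id1, Id3 and Smad7 stay at 0.83 to 0.95 on the right, while Ihh drops to between -0.09 and 0.07 with Id1, Id3, Smad7 and Smad6.

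Over all tested genes with a mean of at least 1 CPM (12219), the 3 with the highest r over 10 libraries were found for each of the 8. For Id1 they were Id3 (0.98), Mxd4 (0.97), a partner of Max that opposes Myc, and the immediate early gene Fos (0.97). For Id3 they were Bcl2l1 (0.98), which encodes the anti-apoptotic Bcl-xL, Usp35 (0.98) and Gramd1b (0.98). Gramd1b (0.99), a carrier of cholesterol between membranes, also led for Smad7, followed by Trim25 (0.99), a ubiquitin ligase, and Asap1 (0.99). For Ihh they were the calpain gene Capn1 (0.97), Limd1 (0.97) and the splicing kinase gene Srpk1 (0.96), and for Smad6 they were Cog7 (0.96) and Cog2 (0.94), subunits of a Golgi tethering complex, and Nfkbib (0.94). For Id2 they were Ddx6 (0.94), Pdzd2 (0.93) and Adcy2 (0.91), for Bmpr1a Lactb2 (0.97), Cnih4 (0.96) and Cept1 (0.96), and for Bmp2 Zmynd15 (0.94), the pro-apoptotic gene Bid (0.94) and Zfp974 (0.94). All of these r are the highest of 12219 over 10 libraries and are raised by that choice. None was tested, and they do not show a shared function.

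The rest of the pathway was read from 8 lists, and no gene of any list was called between dIEC and WT or between females and males in the model of sex and genotype. The r of list genes with Mki67 is given with TMM scaling alone, and scaling moved this r for several of the 8 members. An r of -0.7 or less was reached by 22.3% of all genes. Of 13 BMP ligand genes 6 are listed, 4 higher and 2 lower in dIEC, with a median log2 fold change of 0.22. Bmp3, known to oppose other BMPs in bone, had 32.9 ± 14.0 CPM in dIEC and 36.1 ± 16.6 CPM in WT (SD, n = 5 each) and was higher where Mki67 was higher (r = 0.78), while Bmp1, a metalloprotease in spite of its name, had 69.8 ± 32.2 CPM and 59.0 ± 36.0 CPM (r = -0.82). Bmp8a had 13.3 ± 8.70 CPM in dIEC and 12.0 ± 11.3 CPM in WT (r = -0.75). Bmp4, Bmp5, Bmp6, Gdf1, Gdf5, Gdf6 and Gdf7 are not listed in the table, which holds genes reaching 10 counts in at least 1 library.

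Of 10 receptor and co-receptor genes 7 are listed, 5 higher and 2 lower in dIEC (median 0.088). The type II receptor genes Acvr2a (75.3 ± 11.6 CPM in dIEC and 75.8 ± 15.8 CPM in WT) and Bmpr2 (34.4 ± 6.65 CPM and 34.2 ± 7.27 CPM) had an r of -0.84 and -0.85 with Mki67. Among the type I receptor genes r was 0.010 for Bmpr1a and -0.87 for Acvr1, with Acvr1 chosen after its values were seen. The co-receptor gene Rgmb had 28.0 ± 4.55 CPM in dIEC and 26.0 ± 7.71 CPM in WT (r = 0.54). Bmpr1b, Rgma and Eng are not listed.

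Of 12 Smad genes and intracellular inhibitors 11 are listed, 10 higher and 1 lower in dIEC (median 0.11). The corepressor gene Skil had 301 ± 103 CPM in dIEC and 245 ± 74.95 CPM in WT (log2 fold change 0.30, SE 0.29; r with Mki67 -0.82). Tob1, which dampens Smad activity, had 226 ± 46.9 CPM in dIEC and 216 ± 40.2 CPM in WT (r = -0.86), and the phosphatase gene Ppm1a 156 ± 18.4 CPM and 158 ± 24.7 CPM (r = -0.75). Smad4, the shared partner of receptor Smads, had 122 ± 26.3 CPM in dIEC and 119 ± 25.03 CPM in WT (r = -0.65). Smad9 is not listed. With TMM scaling, Skil, Tob1 and Ppm1a were thus lower where Mki67 was higher, as Smad6 and Smad7 were.

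With the Mki67 level in the model, 550 of 12477 genes (4.41%) were called between the sexes, 386 lower and 164 higher in females. In that fit 5 further genes of the pathway lists were called lower in females. They were Bmp8b (log2 fold change -1.77, edgeR adjusted p = 0.00908), the TGF-beta and activin Smad gene Smad3 (-0.53, adjusted p = 0.0105), Bmp8a (-1.40, adjusted p = 0.0269), and the corepressor genes Ski (-0.40, adjusted p = 0.0355) and Skil (-0.39, adjusted p = 0.0486). Bmp8b had 4.38 ± 2.18 CPM in dIEC and 2.63 ± 2.91 CPM in WT, and Ski 122 ± 28.03 CPM and 107 ± 24.9 CPM. These levels are by genotype and do not show the sex difference. The 5 calls rested on single libraries more than that of Smad7 did. Bmp8b lost its call without WT 4 (-1.46, adjusted p = 0.0707), and so did Smad3 (-0.54, adjusted p = 0.0515). Bmp8a lost it without dIEC 3, dIEC 7, WT 4 or WT 6 (adjusted p up to 0.1199), Ski without any library other than dIEC 5 or WT 10, and Skil without any library other than WT 8. Bmp8a and Bmp8b are close paralogues on chromosome 4, so how reads were split between them is uncertain.

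Of 15 antagonist genes 6 are listed and 5 were tested, 3 higher and 2 lower (median 0.089). Nbl1, a secreted BMP antagonist, had 44.8 ± 17.2 CPM in dIEC and 30.5 ± 5.56 CPM in WT (log2 fold change 0.55, SE 0.25; edgeR unadjusted p = 0.0485, not called). Twsg1, which binds BMPs outside the cell, had 22.9 ± 2.83 CPM in dIEC and 21.5 ± 2.88 CPM in WT. Fstl3 (2.99 ± 0.454 CPM and 3.01 ± 1.51 CPM) and the decoy receptor gene Bambi (2.82 ± 1.38 CPM and 2.31 ± 0.733 CPM) were low. Nog, Grem1, Chrd, Chrdl1, Chrdl2, Fst, Sostdc1, Cer1 and Bmper are not listed. Of 12 target genes 9 are listed and 8 tested, 6 higher and 2 lower (median 0.12), with Msx1 and Msx2 not listed. The tested genes of that list outside the 8 members were higher where Mki67 was higher, with r of 0.90 for Hes1 and 0.54 for Bambi and for Id4. Bambi and Id4 were low, with means over all libraries of 2.56 and 1.67 CPM. Whether the genes of the list answer to BMP in these cells was not tested. Hes1 and Id4 were chosen after their values were seen. The 3 E protein genes that Id proteins bind were level, Tcf12 at 71.5 ± 5.36 CPM in dIEC and 71.3 ± 3.48 CPM in WT, Tcf3 at 52.3 ± 3.83 CPM and 53.8 ± 7.84 CPM, and Tcf4 at 14.7 ± 2.11 CPM and 14.0 ± 2.998 CPM. Their r with Mki67 was 0.12 for Tcf12, 0.26 for Tcf3 and -0.28 for Tcf4.

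Of 20 Hedgehog genes 9 are listed, 6 higher and 3 lower in dIEC (median 0.15), and Ihh is the only ligand gene among them. Cdon, a co-receptor, had 15.9 ± 2.78 CPM in dIEC and 13.7 ± 2.81 CPM in WT (r with Mki67 0.48), and Sufu, an inhibitor of Gli factors, 9.43 ± 2.05 CPM and 8.30 ± 1.79 CPM (r = -0.76). Disp2, a relative of the Hedgehog exporter gene Disp1, had 11.5 ± 1.65 CPM in dIEC and 8.67 ± 1.82 CPM in WT (log2 fold change 0.42, SE 0.18; edgeR unadjusted p = 0.0359, not called). Ptch1, the receptor gene, chosen after its values were seen, had 8.91 ± 1.09 CPM in dIEC and 6.74 ± 1.45 CPM in WT (0.40, SE 0.18; edgeR unadjusted p = 0.0487, not called). Smo, also chosen after its values were seen, had 4.86 ± 3.23 CPM in dIEC and 5.46 ± 3.28 CPM in WT (r with Mki67 0.93). Shh, Dhh, Scube1, Scube2, Scube3, Kif7, Gli1, Gli2, Gli3, Hhip and Gas1 are not listed.

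Of 13 TGF-beta and activin genes 8 are listed and 7 tested, 6 higher and 1 lower (median 0.11). Acvr1b, an activin type I receptor gene, had 79.6 ± 5.51 CPM in dIEC and 78.5 ± 5.52 CPM in WT, Smad3 64.9 ± 18.7 CPM and 59.5 ± 18.3 CPM (r with Mki67 -0.76), Smad2 39.3 ± 3.53 CPM and 41.6 ± 1.04 CPM, and Tgfbr1 33.3 ± 5.35 CPM and 32.6 ± 3.85 CPM. Tgfbr3, the co-receptor betaglycan, chosen after its values were seen, had 1.66 ± 0.663 CPM in dIEC and 0.598 ± 0.393 CPM in WT (log2 fold change 1.50, SE 0.47; edgeR unadjusted p = 0.00905, not called). Tgfb2, Tgfb3, Inha, Inhba and Inhbb are not listed. Over all genes the median log2 fold change was 0.013, so all of these list medians except that of the E protein genes (0.0024) lay above it, and none of the lists was tested as a set. This was not particular to the pathway lists. The medians were 0.25 for crypt and stem cell, 0.17 for proliferation, 0.10 for epithelial, 0.099 for villus tip and 0.040 for villus enterocyte genes. The 1 tested mesenchymal gene had 0.39 and the 1 tested leukocyte gene -0.012. Smad6 and Smad7 are in both the Smad and the target list, and Bambi in both the antagonist and the target list. The medians are therefore not separate observations. Without dIEC 7 the median over the 8 members was -0.0099 with 3 above 0, against -0.015 over all genes with 47.0% above 0. List medians were not computed without that library.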

How the data were processed

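Total RNA of sorted ileal epithelial cells from 10 mice was sequenced after ribosomal RNA removal with a stranded kit, per the labels' protocols. The authors deposited raw read counts per gene. The submitters' processing notes name Novoalign and the build mm10. How reads were assigned to genes, with which annotation and whether by strand, is not given in the sources used here. Overlapping and near-identical genes are therefore uncertain. No pair of libraries in a group matched within sampling noise (the chi-square statistic was 17.0 to 166 times its degrees of freedom), and all count as separate samples. Totals set the precision, and counting error is part of the spread between mice.

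Of the listed genes, 12477 (89.6%) passed edgeR's filterByExpr. Software was edgeR 4.0.16, DESeq2 1.42.0 and limma 3.58.1, in R 4.3.3. edgeR's robust quasi-likelihood test on sex plus genotype, with TMM scaling, gave genotype and sex differences, and a model with their product the interaction. A gene was called at an adjusted p under 0.05 (Benjamini-Hochberg, over all tested genes). Of the fits, only edgeR's model of sex plus genotype was run on simulated counts, with independent genes of the same spread. The fits with Mki67 and with the interaction were not simulated. log2 CPM used a prior count of 2. Coordinates and exon lengths come from GENCODE on GRCm38 (mm10).

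The 8 genes, the lists and the tests were chosen with earlier results of these data known. A few genes of the lists are not reported here. Named genes are the 8, Mki67, per list the genes called in a fit and up to 4 with the highest mean CPM, and the 3 closest genes of each of the 8, plus a few said to be chosen after their values were seen. Alternatives were library size only, DESeq2 size factors, DESeq2, limma voom, no filter, other covariates, fits within a sex and fits that left out a library in turn. Chosen after seeing the data were a fit without dIEC 7 and dIEC 9, further settings of the sex difference with Mki67 in the model, and those of the villus tip relation.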

Additional observations from a re-analysis of the deposited data

Results flagged for a closer look

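Ihh in dIEC 7 was at 178 CPM, and the next highest dIEC library was at 104 CPM. The gap to that library divided by the range of the 5 dIEC libraries was 0.737, above the 95% critical value of 0.71 for 5 samples in Dixon's test. The levels of the 8 genes and of Mki67 were examined in both genotypes, 18 groups in all, and chance gives about 0.9 such values. This library also had the lowest Mki67 level, 40.2 CPM, and the lowest TMM factor, 0.812, whose part in the Ihh value was not tested. Without it the log2 fold change of Ihh was -0.074 for dIEC over WT.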

How the results depend on the processing

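For dIEC against WT, 2 genes were called, with 4 in DESeq2, 28 with Mki67 as a covariate, 0 in females alone, and 2 to 2 when each library was left out; 0 of the 8 genes were called under any of these. For the sexes 5 genes were called, with 13 in DESeq2, 550 with Mki67 as a covariate (1 of the 8, Smad7), and 5 to 5 when each library was left out. For the interaction 1 gene was called, with 0 under library size only, 18 in DESeq2, 2 in limma voom, 15 with Mki67 as a covariate, and 0 to 1 when each library was left out. Bmp2 kept its direction in dIEC against WT under all 20 settings. Without a library, the genotype difference ran from -0.074 to 0.050 for Bmpr1a, -0.19 to 0.24 for Smad6, 0.0039 to 0.57 for Smad7, -0.016 to 0.30 for Id1, -0.12 to 0.067 for Id2, -0.0042 to 0.21 for Id3 and -0.074 to 0.29 for Ihh. In males alone it was 0.14 for Bmpr1a and -0.13 for Smad6, and without dIEC 7 and dIEC 9 it was 0.15 and -0.13. The sex difference without a library ran from -0.23 to 0.025 for Bmp2, -0.32 to 0.24 for Smad6 and -0.59 to 0.070 for Smad7, and that of Smad6 was -0.021 under library size only, -0.018 in limma voom and -0.19 with Mki67 as a covariate. The relation of Id2 to Mki67 was 0.33 under library size only, and that of Bmpr1a to the villus tip list 0.14 without the 2 farthest libraries. The cause was not tested. No paired analysis was possible because the genotypes share no replicate numbers (dIEC 1, 3, 5, 7 and 9; WT 2, 4, 6, 8 and 10). The 5 mice a group and 2 females a genotype limit the precision.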
